A study of Mus musculus with 12 samples.

Results

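The aryl hydrocarbon receptor, Ahr, its partner, its feedback inhibitors and its classical target genes were followed in B16-F10 cells, an established pigmented mouse melanoma line. The set holds 7 genes, Ahr, Arnt, Ahrr, Tiparp, Cyp1a1, Cyp1b1 and Nqo1. Every probe set whose symbol in the platform's annotation is 1 of these names was included, which gave 16 of the 45037 probe sets other than controls and 7 of the 18193 genes. Ahr has 2 probe sets, Arnt 5, Cyp1b1 3, Tiparp 3, and Ahrr, Cyp1a1 and Nqo1 have 1 each. The set was drawn up around Ahr because its level was known to be low with FoxD3 in these arrays. The values of Ahr are therefore given as a description, with no test, in all 3 comparisons, because the comparisons share arrays.

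Cells of 3 transfections were compared, with 4 arrays each. The control cells received empty pMES, a vector in which the chick beta-actin promoter drives a transcript that also makes the green fluorescent protein EGFP. FoxD3 cells received the same vector carrying chicken FoxD3, a forkhead factor that acts in the neural crest and has a C-terminal repression domain. FoxD3-VP16 cells received the vector with chicken FoxD3 in which that domain was exchanged for the VP16 transactivation domain. EGFP-positive cells of all 3 groups were sorted 24 h after transfection, so the cells were transiently transfected and selected for EGFP, and RNA was hybridised to 1-colour arrays. The design asks what FoxD3 does to gene levels in these cells, and whether swapping its repression domain for an activating one alters that. Nothing in the labels tells whether the 4 arrays of a group came from separate cultures, so p-values cover the spread between these arrays alone, and it may be technical.

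Ahr is a transcription factor of the bHLH-PAS family that is held in the cytosol by chaperones until it binds a ligand, such as dioxins or products of tryptophan. It then enters the nucleus, pairs with Arnt and binds xenobiotic response elements, which switches on the cytochrome P450 genes Cyp1a1 and Cyp1b1, Nqo1, Ahrr and Tiparp. Ahrr competes with Ahr for Arnt, and Tiparp, an ADP-ribosyltransferase, modifies Ahr and limits its activity. In skin the receptor is known for its response to tryptophan photoproducts made under ultraviolet light.

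The levels of the melanoma markers Mlana, Dct, Tyr, Tyrp1, Pmel, Sox10 and Mitf lay above the brightness limit used below, 7 of 7. Of the markers of other cells, 3 of 6 for fibroblasts, 1 of 4 for leukocytes and 0 of 3 each for keratinocytes, endothelium and hepatocytes did. The mean log2 level of the fibroblast markers was 5.47 to 5.87 over the arrays with empty vector, 6.04 to 6.26 with FoxD3 and 5.65 to 5.97 with FoxD3-VP16, so it moved with the groups. The single fibroblast markers did not move together. Col1a1 was at 5.12, 7.80 and 6.19 in the 3 groups and Pdgfra at 5.99, 7.20 and 6.66. Col1a2 went the other way (7.79, 7.07 and 7.90), and Dcn, Lum and Thy1 lay below the limit. The mean of the melanoma markers was 14.3 to 14.4 over the empty-vector arrays, 13.9 to 14.1 with FoxD3 and 14.1 to 14.2 with FoxD3-VP16, so it also moved with the groups. Among them Mitf was at 13.4, 12.3 and 12.98, Tyr at 13.6, 12.8 and 13.7, and Sox10 at 12.7, 13.4 and 11.9 in the 3 groups. The hepatocyte markers, all below the limit, had means of 4.88 to 5.10, 5.26 to 5.55 and 4.30 to 4.99. The part of any of these in the results below was not tested. In sorted bulk cells, fewer cells expressing a gene and less RNA per cell cannot be told apart. The arrays numbered 1 differed from the other 9, with medians of log2(intensity + 16) between 6.74 and 6.94 against 6.15 to 6.28. Within each group, arrays 3 and 4 were the most alike. Their median absolute log2 difference was 0.13, 0.11 and 0.15 in the 3 groups, against 0.23 to 0.49 for other arrays of a group. Why they are alike was not tested. Counts of 4 pairs or n = 4 may therefore overstate the number of separate results.

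Promoter sequences are shown for Tiparp, whose level passed the test below, for its receptor's partner Arnt, and for Ahrr, which holds the most matches to the xenobiotic response element of the set. RefSeq promoter windows (GRCm38.p6) were matched by symbol for 6 of the 7 genes; Ahr is the gene without a match. Each window runs from 250 bases before to 50 bases after a transcription start. The 250 bases before the start are printed 5′ to 3′ on the gene's strand, with matches to GCGTG, the core of the xenobiotic response element, in capitals (a match on the other strand reads CACGC). The stretches are chr3:65528197-65528446 on the plus strand, chr3:95434140-95434389 on the plus strand and chr13:74292332-74292581 on the minus strand.
Tiparp: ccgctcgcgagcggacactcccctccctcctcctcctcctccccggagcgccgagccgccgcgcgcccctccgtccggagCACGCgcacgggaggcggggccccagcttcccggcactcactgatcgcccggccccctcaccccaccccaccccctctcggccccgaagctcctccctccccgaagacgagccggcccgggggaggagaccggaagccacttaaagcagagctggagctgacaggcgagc
Arnt: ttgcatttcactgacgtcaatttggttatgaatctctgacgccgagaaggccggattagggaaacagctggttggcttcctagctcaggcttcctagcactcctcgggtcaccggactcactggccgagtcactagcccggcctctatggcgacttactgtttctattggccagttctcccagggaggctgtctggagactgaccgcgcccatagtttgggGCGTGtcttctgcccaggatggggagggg
Ahrr: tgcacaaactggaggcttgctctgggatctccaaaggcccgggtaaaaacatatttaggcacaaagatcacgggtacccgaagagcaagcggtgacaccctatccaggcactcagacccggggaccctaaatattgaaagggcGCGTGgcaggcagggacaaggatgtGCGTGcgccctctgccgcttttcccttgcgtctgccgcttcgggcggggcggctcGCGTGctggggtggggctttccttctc
GCGTG, searched on both strands, was found once in the window of Tiparp, on the opposite strand at position -170 from the start, and once in that of Arnt, at -29. Ahrr had 3 matches, starting at positions -107, -82 and -27 from the start, and the last of these lies in the longer form TNGCGTG. Cyp1a1 and Cyp1b1 had 1 match each, at -54 and -76, and Nqo1 had 0. Of all 32851 windows of this length, 32.4% hold GCGTG and 5.07% hold TNGCGTG. The forkhead core TGTTTA, also searched on both strands, was in 0 of these 6 windows and in 13.4% of all windows. A match is a description of the letters and no binding was measured.

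Levels are deposited intensities on a linear scale, and differences are on the scale of log2(intensity + 16) after quantile normalization. Each gene is represented by its probe set with the highest mean over the 12 arrays. Genes were tested if their mean log2 level was not among the lowest 40%, that is, at or above 5.98. This left 5 of the 7 genes in the test, Ahr, Arnt, Ahrr, Tiparp and Nqo1, among 10916 genes. Cyp1a1 and Cyp1b1 lay below the limit. A gene was called changed at an adjusted p under 0.05 by limma with Benjamini-Hochberg adjustment over all genes tested. The arrays of the 3 groups share the numbers 1 to 4, and a pair means the arrays of the same number.

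**Figure D1:**
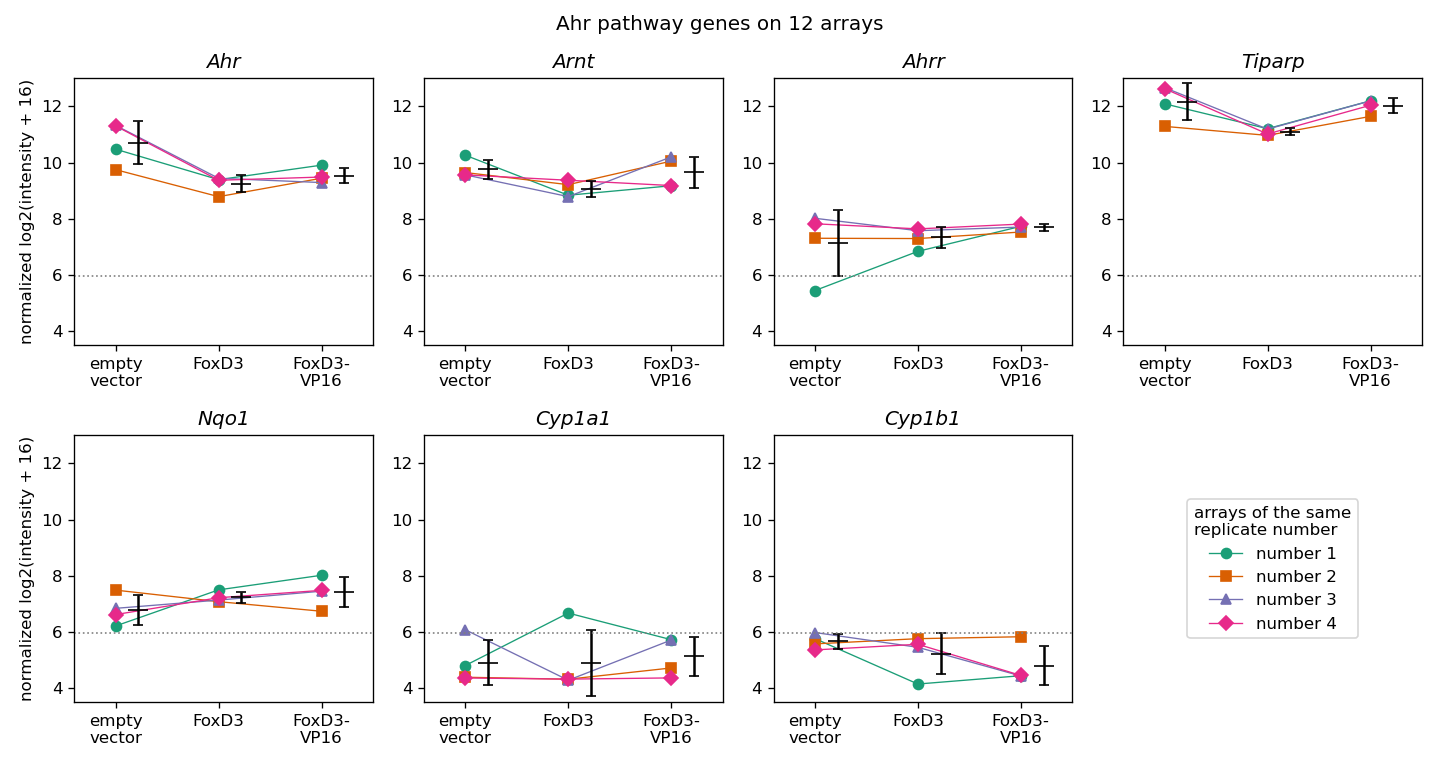
Normalized log2 level (vertical axis, log2(intensity + 16)) of the 7 genes in each of the 12 arrays, by transfection, with lines and marker shapes joining arrays of the same replicate number, black bars for the group mean ± SD (n = 4) and a dotted line at the brightness limit of 5.98. Ahr and Tiparp lie lower with FoxD3 than with empty vector in every array, while the FoxD3-VP16 arrays of Tiparp lie with those of empty vector. The FoxD3-VP16 mean of Ahr lies nearer to that of FoxD3. In the pair numbered 2, however, Ahr with FoxD3-VP16 (9.44) lies nearer to empty vector (9.75) than to FoxD3 (8.79).

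FoxD3 against empty vector. Ahr and its inhibitor Tiparp were both lower with FoxD3, the partner Arnt was lower in all 4 pairs without passing the test, and Ahrr and Nqo1 did not pass. Of the 4 tested genes other than Ahr 1 was called, Tiparp, lower, where 4.01% of all 10916 tested genes were called in either direction and 1.12% were called lower.

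The intensity of Ahr (1422631_at) was 1323, 851, 2633 and 2565 in the empty-vector arrays 1 to 4 and 607, 435, 705 and 668 in the FoxD3 arrays. All 4 FoxD3 arrays lay below all 4 of the control, and the control arrays 3 and 4 were the highest of the 12. The log2 level was 10.7 ± 0.76 (SD, n = 4) against 9.25 ± 0.31, a 2.76-fold lower level (log2 difference -1.47, SE 0.31). The difference within pairs was -1.08, -0.96, -1.88 and -1.94, largest in pairs 3 and 4, whose arrays were the most alike. Over the 25 alternatives the difference between the groups ranged from -1.80 to -1.01. The other probe set of Ahr (1450695_at) was dim, at 6.13 ± 0.73 (SD, n = 4) with empty vector and 5.58 ± 0.33 with FoxD3, and was lower in 3 of 4 pairs (-0.55, SE 0.38).

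The intensity of Tiparp (1426721_s_at) was 4438, 2497, 6227 and 6082 with empty vector and 2258, 1990.3, 2371 and 2094 with FoxD3. The groups did not overlap, and the FoxD3 arrays were closely spaced while control array 2 was the nearest to them. Tiparp fell 2.11-fold, from a log2 level of 12.2 ± 0.64 (SD, n = 4) in the control to 11.1 ± 0.12 with FoxD3 (log2 difference -1.08, SE 0.26, limma adjusted p = 0.0345). It was lower in 4 of 4 pairs (-0.89, -0.32, -1.48 and -1.62), most in pairs 3 and 4, whose arrays were the most alike. Its other probe sets were lower in 4 of 4 pairs too, by -0.90 (SE 0.37) for 1452160_at and -1.03 (SE 0.34) for 1452161_at, with overlap between the groups. With every probe set tested on its own, where 1.2% of 34945 probe sets were called, none of the 3 passed (adjusted p = 0.0566, 0.408 and 0.228).

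The call of Tiparp was lost with the mean of its probe sets (-0.999, adjusted p = 0.0917), without the 3 arrays numbered 1 (-1.08, 0.0579), and without any 1 of 9 single arrays: empty vector 1, 3 or 4, any FoxD3 array, or FoxD3-VP16 3 or 4 (adjusted p = 0.0525 to 0.110). It passed without any of the other 3 single arrays, and with the replicate number as a block it passed with the 3 arrays of any 1 number left out (-1.33 to -0.91, adjusted p = 0.00022 to 0.00774, alternatives added after seeing the data).

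Arnt, the partner that Ahr needs to bind DNA, was represented by 1437042_at, with intensities of 1128, 794, 769 and 764 with empty vector and 415, 595, 442 and 669 with FoxD3. The groups did not overlap. The log2 level was 9.76 ± 0.34 (SD, n = 4) against 9.05 ± 0.28, and the difference of -0.71 (SE 0.27, 95% confidence interval -1.28 to -0.13) did not pass (limma adjusted p = 0.194, and 0.0623 with the replicate number as a block). A probe set of nearly the same brightness, 1419996_s_at, gave 749, 733, 842 and 843 with empty vector and 276, 551, 469 and 587 with FoxD3, again with no overlap. Its difference was -0.81 (SE 0.22, adjusted p = 0.117 among all probe sets). The other 3 probe sets of Arnt were dimmer and had differences of -0.28, -0.21 and -0.55. Leaving Ahr aside, 2 of the other 4 tested genes (Arnt and Tiparp) had every FoxD3 array below every control array, where 4.72% of all tested genes did.

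Ahrr, the repressor, had intensities of 43, 133, 236 and 210 with empty vector and 119, 139, 170 and 180 with FoxD3. Control array 1 was the lowest of the 12 and the groups overlapped (log2 difference 0.19, SE 0.45, 95% confidence interval -0.79 to 1.17, limma adjusted p = 0.915). Its sign rested on the arrays numbered 1: without them it was -0.20. Nqo1, a quinone reductase that both Ahr and the oxidative stress factor Nrf2 switch on, had intensities of 83.7, 156, 87.6 and 77.4 with empty vector and 175, 114, 117 and 124 with FoxD3. It was higher in 3 of 4 pairs, and lower in the pair numbered 2, with overlapping groups (0.44, SE 0.32, 95% confidence interval -0.25 to 1.13, limma adjusted p = 0.581). With array quality weights it passed (0.0271), a setting that called 4193 genes in this comparison.

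The cytochromes, the most used readouts of receptor activity, were dim. Cyp1a1 had intensities of 16.2, 4.12, 42.8 and 4.35 with empty vector, 108, 3.05, 2.35 and 3.08 with FoxD3, and 68.7, 9.13, 28.8 and 3.57 with FoxD3-VP16. Its highest value in every group but the control was in array 1, and the mean log2 level was 4.91 ± 0.81 (SD, n = 4), 4.90 ± 1.18 and 5.13 ± 0.70. The brightest probe set of Cyp1b1 (1432081_at) had 59.4, 27.9, 38.9 and 22.7 with empty vector, 2.65, 32.7, 20.2 and 24.6 with FoxD3, and 10.1, 36.7, 4.39 and 4.62 with FoxD3-VP16. The mean log2 levels of Cyp1b1 were 5.67 ± 0.26 (SD, n = 4), 5.23 ± 0.73 and 4.79 ± 0.69, and the groups overlapped in all 3 comparisons. Both genes lay below the brightness limit, where differences depend on the pseudocount: with a pseudocount of 1 in place of 16, the difference of Cyp1b1 between FoxD3 and empty vector went from -0.44 to -1.02. No change of either cytochrome was detectable at this brightness, which does not show that there was none.

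**Figure D2:**
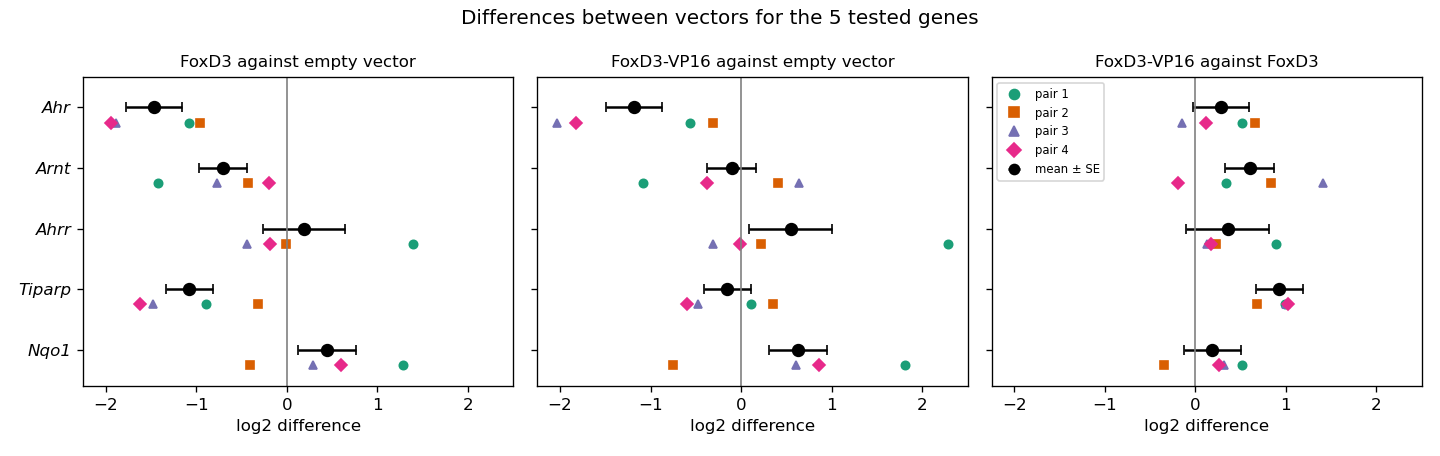
Log2 difference of each tested gene in each of the 3 comparisons (horizontal axis, log2 units), with the mean difference ± SE in black and a coloured point for each of the 4 pairs of arrays. All 4 pairs of Tiparp lie below 0 for FoxD3 against empty vector and above 0 for FoxD3-VP16 against FoxD3, and on both sides of 0 for FoxD3-VP16 against empty vector.

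FoxD3-VP16 against empty vector. Ahr, by its brighter probe set, was lower with FoxD3-VP16 too. Tiparp was at about its control level in the mean and the other tested genes had no difference past the threshold. Of the 4 tested genes other than Ahr 0 were called by limma, where 0.595% of all tested genes were, and 0 had an unadjusted p under 0.05. With the block 0 of these 4 were called, where 11.1% of all genes were. The intensity of Ahr was 860, 688, 635 and 727 with FoxD3-VP16. Arrays 2, 3 and 4 lay below every control array, and array 1 lay between the control arrays. The log2 level was 9.53 ± 0.27 (SD, n = 4), 2.27-fold below the control (-1.18, SE 0.31), and lower in 4 of 4 pairs (-0.57, -0.30, -2.04 and -1.82). The dim probe set of Ahr (1450695_at) had -0.08 (SE 0.38) and was lower in 2 of 4 pairs. With the mean of both probe sets the difference was -0.63. This comparison and the first share the control arrays, of which numbers 3 and 4 were the highest.

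Tiparp had intensities of 4678, 3221, 4617 and 4226 with FoxD3-VP16. All lay within the range of the control arrays, above the control in pairs 1 and 2 and below it in pairs 3 and 4. The difference was -0.15 (SE 0.26, 95% confidence interval -0.71 to 0.41, limma adjusted p = 0.938); with array quality weights it was -0.45 and passed (adjusted p = 0.0125). Its other probe sets had differences of 0.12 and 0.17.

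Arnt had intensities of 525, 1057, 1199 and 587 with FoxD3-VP16, a wide spread with arrays 2 and 3 high (-0.11, SE 0.27, limma adjusted p = 0.966). Ahrr had 213, 167, 195 and 205, the closest spacing of its 3 groups, within the range of the control (0.55, SE 0.45, 95% confidence interval -0.43 to 1.53, limma adjusted p = 0.799). Without control array 1 the difference of Ahrr was -0.02. Nqo1 had 250.1, 85.5, 158 and 157, higher than the control in 3 of 4 pairs and lower in the pair numbered 2 (0.63, SE 0.32, 95% confidence interval -0.06 to 1.32, limma adjusted p = 0.549). It passed with array quality weights (adjusted p = 0.00999) and, with the block, when the arrays numbered 2 were left out (1.07, adjusted p = 0.0452). Cyp1b1 was lower in 3 of 4 pairs (-0.88), and its other probe sets had differences of 0.24 and -0.69.

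FoxD3-VP16 against FoxD3. Tiparp, the feedback inhibitor, was higher with FoxD3-VP16 than with FoxD3. The difference of Ahr, 0.28, is a description with no test. Of the 4 tested genes other than Ahr 1 was called, Tiparp, higher with FoxD3-VP16, where 9.57% of all tested genes were called in either direction and 4.44% were called higher. Tiparp rose 1.90-fold (0.93, SE 0.26, limma adjusted p = 0.0395), from 11.1 ± 0.12 (SD, n = 4) to 12.02 ± 0.26, in 4 of 4 pairs (0.99, 0.68, 1.01 and 1.02). The 2 groups did not overlap, as for 8.05% of all tested genes in this direction. All 3 probe sets of Tiparp were higher in 4 of 4 pairs with no overlap (1.01, SE 0.37, and 1.19, SE 0.34, for the others). With every probe set tested on its own, where 3.29% were called, none of the 3 passed (adjusted p = 0.0633, 0.200 and 0.0757).

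The call of Tiparp here was lost without the arrays numbered 1 (0.88, adjusted p = 0.0743) and without any 1 of 7 single arrays: any FoxD3 array, or FoxD3-VP16 1, 3 or 4 (adjusted p = 0.0593 to 0.111). With the block it passed with the 3 arrays of any 1 number left out (0.88 to 1.01, adjusted p = 0.00052 to 0.00519, alternatives added after seeing the data).

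The level of Ahr, given as a description, differed by 0.28 between FoxD3-VP16 and FoxD3 (SE 0.31), higher with FoxD3-VP16 in 3 of 4 pairs. Arnt was higher in 3 of 4 pairs (0.60, SE 0.27, 95% confidence interval 0.02 to 1.18) and did not pass (limma adjusted p = 0.198). With the block it passed without the arrays numbered 1 (adjusted p = 0.0478) or 4 (0.0451), and not with all arrays (0.0843). All 5 probe sets of Arnt had differences above 0, from 0.44 to 0.60. Ahrr was higher in 4 of 4 pairs by small amounts (0.36, SE 0.45, limma adjusted p = 0.731) and Nqo1 in 3 of 4 (0.19, SE 0.32, limma adjusted p = 0.807).

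**Figure D3:**
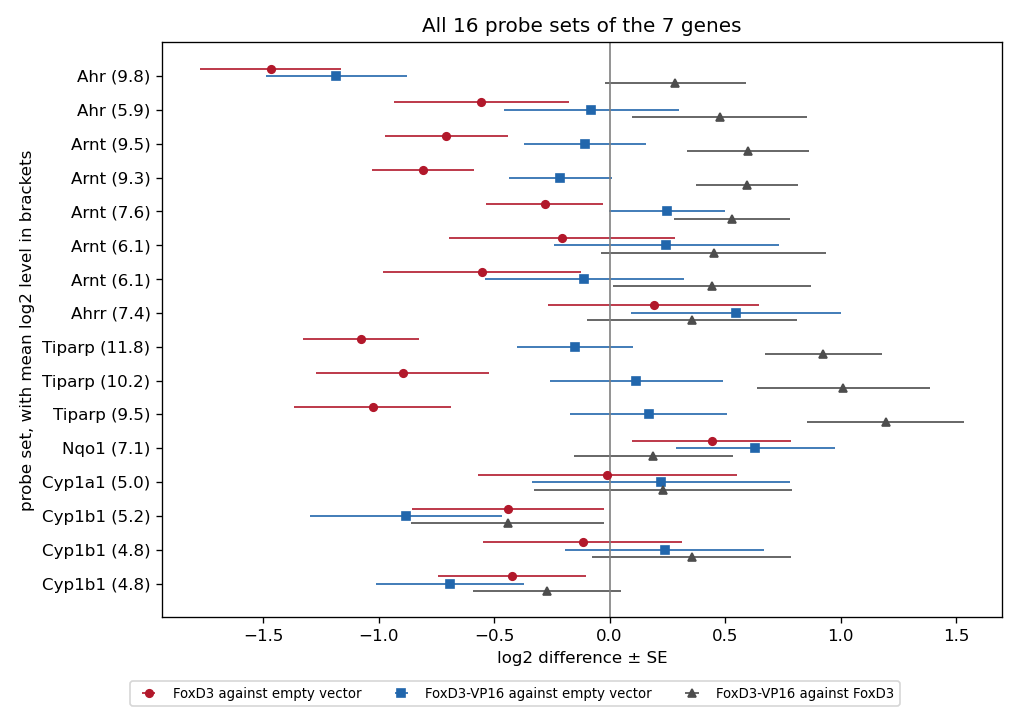
Log2 difference with its standard error (horizontal axis, log2 units) for all 16 probe sets of the 7 genes in the 3 comparisons, with each probe set's mean log2 level in brackets. The 3 Tiparp probe sets lie together in each comparison, and the brighter Ahr probe set (-1.47 with FoxD3) lies apart from the dim one (-0.55).

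In order of mean level, Ahr by its brighter probe set was highest with empty vector, followed by FoxD3-VP16 and FoxD3, which lay within each other's spread. By its dim probe set FoxD3-VP16 (6.06) lay nearer to empty vector (6.13) than to FoxD3 (5.58). For Tiparp the empty vector and FoxD3-VP16 lay within each other's spread and FoxD3 was below both. For Arnt the order was empty vector, FoxD3-VP16, FoxD3, and no neighbours in it differed past the threshold. Ahrr and Nqo1 were highest with FoxD3-VP16, then FoxD3, then empty vector, again with no neighbours past the threshold. For Ahrr this order rested on control array 1. Without that array, Ahrr was lower with FoxD3 than with empty vector and about level with FoxD3-VP16 (difference from empty vector -0.02). Across the 12 arrays the log2 levels of Ahr and Tiparp had a Pearson r of 0.79, and 0.75 after the mean of each replicate number was subtracted. The 12 points share groups and normalization, and 109 of the other 10914 tested genes had a higher r to Ahr than Tiparp had.

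**Figure D4:**
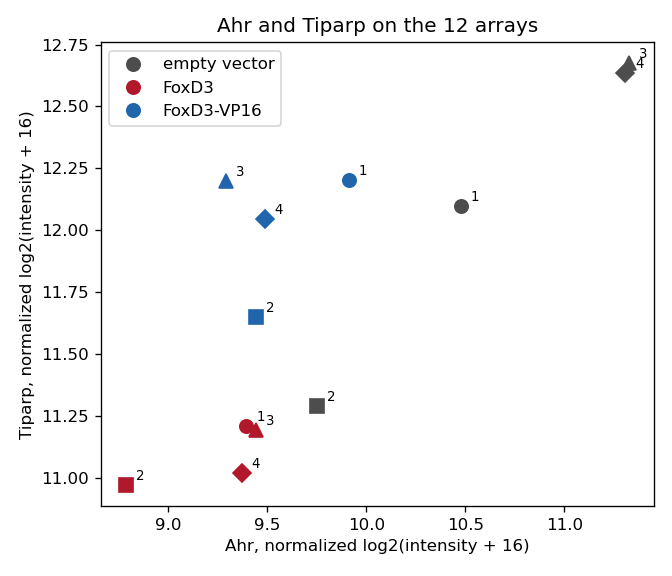
Normalized log2 level of Tiparp (vertical axis) against that of Ahr (horizontal axis), 1 point an array, coloured by transfection and labelled by replicate number. The 4 FoxD3 arrays are low in both genes; the FoxD3-VP16 arrays have Tiparp levels between the lowest and highest control arrays, and 3 of them have Ahr levels below every control array.

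The genes whose levels followed that of Ahr most closely over the 12 arrays were Nup37 (r = 0.96), Klhdc2 (0.95), Ghr (0.94), Ifih1 (0.92) and Zfp746 (0.92). The lowest correlations were those of Emilin1 (-0.93), Cnpy4 (-0.93), Tmem50b (-0.93), Epas1 (-0.92) and Srp9 (-0.91). Genes picked as extremes from 10915 have high values by their choice, and the correlations are a description over arrays that share groups.

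Other genes of the pathway were taken from 6 lists with 68 distinct genes, of which 58 have a probe set with that 1 symbol and 37 were tested. With FoxD3 against empty vector 2 of 37 rose and 0 fell (5.41%, beside 4.01% of all genes). With the block 12 were called (32.4%, beside 21% of all genes). The median difference of the 37 was -0.02, and that of all tested genes -0.0041. With FoxD3-VP16 against empty vector limma called 0 without the block (5 at an unadjusted p under 0.05; 7, or 18.9%, with the block, beside 11.1% of all genes). With FoxD3-VP16 against FoxD3, 3 rose and 4 fell (18.9%, beside 9.57% of all genes; with the block 15, or 40.5%, beside 32%), with a median of -0.10 against -0.03.

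Among relatives of Ahr and Arnt in the bHLH-PAS family and the clock, 10 of 16 were tested, and Epas1 and Per1 rose with FoxD3 against empty vector while 0 fell. Epas1, the hypoxia factor that also pairs with Arnt, was at a log2 level of 9.26 ± 0.46 (SD, n = 4) in the control and 10.3 ± 0.17 with FoxD3 (log2 difference 1.02, SE 0.21, limma adjusted p = 0.0156), with no overlap. Its call was lost with the mean over its probe sets (0.0853), without control array 4 (0.0578) or without FoxD3 array 4 (0.0524). With FoxD3-VP16 it was at 9.92 ± 0.17, a difference of 0.66 from the control (adjusted p = 0.246, and 0.0345 with the block). Per1, a repressor of the circadian clock, went from 8.76 ± 0.49 to 9.77 ± 0.17 with FoxD3 (1.01, SE 0.22, limma adjusted p = 0.0211), and did not pass without FoxD3 array 3 (0.0696) or 4 (0.0838). With FoxD3-VP16 it was at 8.45 ± 0.08, lower than with FoxD3 (-1.32, SE 0.22, limma adjusted p = 0.00209). Hif1a, the main hypoxia factor, had a difference of -0.28 with FoxD3 (adjusted p = 0.739, and 0.0226 with the block), and Arnt2, a close relative of Arnt, of -0.11 (adjusted p = 0.961).

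Of the receptor's chaperones, 2 of 5 were tested, Hsp90aa1 and Src, and 0 were called by limma in any comparison without the block (at an unadjusted p under 0.05, 1, 0 and 0 in the order above). With the block Src, a kinase held in the receptor complex, was called higher in FoxD3 against empty vector (0.67, adjusted p = 0.0496) and Hsp90aa1, the chaperone itself, lower in FoxD3-VP16 against FoxD3 (-0.20, 0.0438). Hsp90ab1 has no probe set with that 1 symbol in the annotation used. Of 11 coregulators and turnover genes 10 were tested. Nrip1, a corepressor of nuclear receptors, was called in FoxD3-VP16 against FoxD3, where it rose from 9.39 ± 0.51 (SD, n = 4) to 10.8 ± 0.15 (1.36, SE 0.26, limma adjusted p = 0.00563). It passed under each of the 25 alternatives. Against empty vector it had -0.78 with FoxD3 (adjusted p = 0.140, and 0.00474 with the block) and 0.59 with FoxD3-VP16 (0.466, and 0.0358 with the block).

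Of 19 xenobiotic and other reported targets 5 were tested, and Cyp1a2, at a mean log2 level of 4.55, was below the limit. In FoxD3-VP16 against FoxD3, 2 rose and 2 fell. Gstm1, a glutathione transferase, rose from 9.45 ± 0.63 (SD, n = 4) to 10.9 ± 0.16 (1.499, SE 0.38, limma adjusted p = 0.0262). Its probe set can share probes with its close relatives, so the gene behind the value is uncertain. Gstm1 did not pass without FoxD3 array 3 or 4 or FoxD3-VP16 array 2, 3 or 4 (adjusted p = 0.0592 to 0.0864), and against empty vector it had 1.42 with FoxD3-VP16 (0.156, and 0.00112 with the block). Socs2, an inhibitor of cytokine signalling, fell from 8.68 ± 0.13 to 7.26 ± 0.19 (-1.41, SE 0.28, limma adjusted p = 0.00708). With the mean of its 6 probe sets, the difference of Socs2 was -0.75 (adjusted p = 0.0616). Against empty vector Socs2 had 1.09 with FoxD3 (0.0515, and 0.00909 with the block). Slc7a5, which carries tryptophan and kynurenine into cells, fell from 12.6 ± 0.20 to 11.8 ± 0.20 (-0.82, SE 0.18, limma adjusted p = 0.0132), and passed under each of the 25 alternatives. Against empty vector Slc7a5 had 0.46 with FoxD3 (adjusted p = 0.217, and 0.00221 with the block) and -0.36 with FoxD3-VP16 (0.559, and 0.0199 with the block). Without the block, the FoxD3 difference passed without control array 2 (0.63, adjusted p = 0.0421).

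Nfe2l2, which encodes Nrf2 and belongs to this list and to the Nrf2 list, rose in FoxD3-VP16 against FoxD3 from 11.6 ± 0.30 (SD, n = 4) to 12.2 ± 0.20 (0.58, SE 0.17, limma adjusted p = 0.0464). This call was lost without any 1 of 10 single arrays, namely all but control array 1 and FoxD3 array 1 (0.0532 to 0.152), and with the mean of its probe sets (0.21, adjusted p = 0.664). Values as deposited (0.0558), no filter (0.0676) and every probe set on its own (0.0904) ended it too. Of the 11 genes of the Nrf2 list 9 were tested, and 1 rose and 1 fell in this comparison. Srxn1, which repairs oxidised peroxiredoxins, fell from 11.3 ± 0.22 to 10.3 ± 0.08 (-0.97, SE 0.20, limma adjusted p = 0.00722), though not with the mean of its probe sets (-0.70, 0.0898). Against empty vector with FoxD3, Nfe2l2 had -0.54 (0.0994) and Srxn1 0.57 (0.141); with the block both passed (0.00549 and 0.00652). Of 7 enzymes of tryptophan and kynurenine metabolism, a source of Ahr ligands, 2 were bright enough to test. Of these 2, limma called 0 in any comparison, with or without the block (0 at an unadjusted p under 0.05).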

How the data were processed

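The 12 arrays form 3 groups of 4, mapped by sample titles. The authors deposited linear intensities of 45101 probe sets per array. MAS5 is named per the submitters' processing notes, without a version. The number of arrays limits the precision. From the intensities log2(intensity + 16) was computed and quantile normalized, because array medians spanned 0.79, above the limit of 0.5. This scale understates changes of dim genes. Control probe sets (64) were dropped, and 34945 probe sets with 1 symbol were kept (932 have several, and 9160 are not listed in the annotation used). Comparisons used limma 3.58.1 in R 4.3.3 (lmFit, eBayes with trend) over all 12 arrays, without a block (9 residual and 3.98 prior degrees of freedom). Python 3.11.15 with matplotlib 3.10.9 made the figures. The fit without a block was tested on simulated data with independent arrays. That simulation does not cover the likeness of same-numbered arrays or of arrays 3 and 4.

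The members, the lists and the alternatives were chosen with earlier results of these data known. Named are all 7 members and, of each list, up to 4 genes with the largest change among those called in any comparison, plus Hsp90ab1, Arnt2, Hif1a, Nfe2l2 and Cyp1a2 whether or not they passed; 1 further gene of this rule is not reported here. Deviations from the group means correlated at 0.37 to 0.67 in all 12 same-numbered pairs of arrays of different groups, so the numbers were taken to pair the samples; the labels do not say what they share. Between numbers 3 and 4 (6 pairs) the correlation was 0.37 to 0.54, and in the 30 remaining pairs -0.51 to 0.12. A fit that takes the number as a block (6 residual and 7.30 prior degrees of freedom) is given where it changes a call or a count. Alternatives were pseudocounts of 1 and 64, values as deposited, no filter, the mean of a gene's probe sets, every probe set alone, array quality weights, and arrays left out.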

Additional observations from a re-analysis of the deposited data

Results flagged for a closer look

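In 5 of 48 groups of 4 arrays (16 probe sets in 3 groups) 1 array lay far from the other 3 by Dixon's ratio, the gap to the nearest array over the whole range above its 95% critical value; chance alone gives about 1 in 20 groups. Ahr (1422631_at) was at a log2 level of 8.79 in FoxD3 array 2 against 9.37 to 9.44 in the others. Arnt was at 10.3 in control array 1 by 1437042_at, against 9.56 to 9.65, and at 9.54 in control array 2 by 1419996_s_at, against 9.70 to 9.71. Cyp1a1 was at 6.67 in FoxD3 array 1 against 4.28 to 4.32, and Cyp1b1 (1432081_at) at 5.83 in FoxD3-VP16 array 2 against 4.43 to 4.45.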

How the results depend on the processing

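The count of called members other than Ahr was 1 (Tiparp) for FoxD3 against empty vector and 0 for FoxD3-VP16 against empty vector. For FoxD3-VP16 against FoxD3 it was 1 (Tiparp). Ahr was chosen for its level in these arrays, so it is left out of all counts here. The replicate number as a block, which the pairing of the samples bears on, changed none of the 3 counts. The count for FoxD3 against empty vector (1) was 2 (Tiparp and Nqo1) with array quality weights. It was 0 with the mean of all probe sets, with every probe set on its own and without the arrays numbered 1. With single arrays left out it was 0 to 1. For FoxD3-VP16 against empty vector (0) it was 2 (Tiparp and Nqo1) with array quality weights. With the block it was 1 (Nqo1) when the arrays numbered 2 were left out. With single arrays left out it was 0. For FoxD3-VP16 against FoxD3 (1) it was 0 with every probe set on its own and without the arrays numbered 1, 2 with array quality weights and with the block when the arrays numbered 1 or 4 were left out, and 0 to 1 with single arrays left out. Array quality weights called 4193, 3465 and 4455 of all genes in the 3 comparisons, and the block 2297, 1217 and 3498, against 438, 65 and 1045. The cause of these differences was not tested.

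The differences that changed sign passed the threshold neither in the value given in the report nor with the changed sign. For FoxD3 against empty vector, Ahrr was -0.18 with weights, -0.20 without the arrays numbered 1, with or without the block, and -0.39 to 0.48 with single arrays left out. Gstm1 was 0.091 with weights, 0.0071 with the block without the arrays numbered 2, and -0.34 to 0.25 with single arrays left out. Arnt2 was 0.39 with the mean of all probe sets, 0.12 with weights, 0.048 without the arrays numbered 1, with or without the block, and -0.30 to 0.047 with single arrays left out. For FoxD3-VP16 against empty vector, Arnt was 0.014 with the mean of all probe sets, 0.14 with weights, 0.22 without the arrays numbered 1, with or without the block, and -0.29 to 0.063 with single arrays left out. Tiparp was 0.045 with the mean and -0.45 to 0.016 with single arrays left out, and Ahrr -0.021 to 0.83. Nfe2l2 was -0.31 with the mean, -0.091 with the block without the arrays numbered 3, and -0.056 to 0.12 with single arrays left out, and Hif1a -0.33 to 0.11. For FoxD3-VP16 against FoxD3, Nqo1 was -0.011 to 0.42 and Hif1a -0.050 to 0.40 with single arrays left out.

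Brightness limits what can be said of Cyp1a1, Cyp1b1 and the dim probe sets of Ahr and Arnt. A pseudocount of 1 moved Cyp1b1 to -1.02 and -1.76 against empty vector, and the causes were not tested.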

Other observations

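By Pearson r over the 12 arrays, the tested genes whose levels were most like those of the other members were as follows. For Tiparp they were the histone demethylase Jmjd1c (0.96), Rictor, a subunit of a complex of the kinase mTOR (0.95), and Epc1 (0.95). For Arnt they were Nsun4 (0.86), the melanosome transport GTPase Rab27a (0.86) and Gm10033 (0.83), and for Ahrr 5730480H06Rik (0.97), Zfp949 (0.97) and Zfp30 (0.96). For Nqo1 they were Adamts9 (0.85), Tmbim6 (0.82) and Bcas3 (0.82). These values describe arrays that share groups and replicate numbers. Nqo1 and Ahrr had an r of 0.45 with each other, and 0.72 after the mean of each replicate number was subtracted, while Ahr and Nqo1 had an r of -0.47.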
